A study of Mus musculus with 12 samples.

Results

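The genes described here are the numbered zinc finger protein (Zfp) genes of the mouse, taken as every measured symbol made of Zfp followed by digits alone. They number 199 of the 11614 genes measured, or 1.71%. RefSeq lists 372 such symbols in the mouse, 367 of them protein coding, and the same 199 matched by gene identifier. The study asked how the kidney fares in a mouse model of non-alcoholic steatohepatitis (NASH), in which the liver is fatty and inflamed, and sequenced RNA of the kidney cortex of C57BL/6J mice. Each of 4 groups has 3 libraries. The first group is NASH mice given a Western diet and carbon tetrachloride (CCl4), a liver toxin, for 12 weeks, drawn from 6 mice. The second is control mice kept for 12 weeks on a normal diet with corn oil, also from 6 mice. The third is NASH mice on the same Western diet and CCl4 for 24 weeks, from 10 mice, and the fourth is control mice kept for 24 weeks on the normal diet with corn oil, from 8 mice. Every group held as many males as females. The labels do not say whether a library is 1 animal or a pool, so every p measures the spread between these libraries. Diet, CCl4 and liver disease always came together and cannot be told apart.

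A classical zinc finger is a short protein loop in which a pair of cysteines and a pair of histidines (C2H2) grip a zinc ion, and rows of such fingers read DNA. Many mouse Zfp proteins also carry a KRAB box, which calls in the corepressor Trim28 and the histone methyltransferase Setdb1 and silences transposable elements. Zfp is a naming convention and not a single pathway. The set also holds RNA-binding proteins of another finger class (CCCH), such as tristetraprolin, the product of Zfp36, which marks short-lived messenger RNAs for decay.

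Stretches of the genes that recur below show these building blocks (GENCODE vM21, GRCm38, written 5′ to 3′ on the coding strand). The first pair sets neighbouring C2H2 fingers of a gene with alike fingers beside those of a KRAB gene with divergent ones. Capitals mark the codons of the zinc-binding cysteines (TGC or TGT) and histidines (CAC or CAT). The fingers of Zfp664 lie at chr5:124885892-124886038 (plus strand) and those of Zfp59 at chr7:27854400-27854546 (plus strand).
Zfp664 fingers 5 and 6: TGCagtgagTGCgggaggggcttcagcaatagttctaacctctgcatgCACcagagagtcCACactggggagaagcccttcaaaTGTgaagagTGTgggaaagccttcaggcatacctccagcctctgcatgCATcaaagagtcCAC
Zfp59 fingers 9 and 10: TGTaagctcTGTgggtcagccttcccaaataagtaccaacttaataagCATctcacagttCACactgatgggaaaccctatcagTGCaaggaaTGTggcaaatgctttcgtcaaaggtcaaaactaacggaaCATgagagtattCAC

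Counted over the 84 bases of a finger and its linker, finger 5 of Zfp664 shares 65 bases with finger 6, and finger 9 of Zfp59 shares 49 with finger 10. The contrasting CCCH finger of Zfp36 (chr7:28378158-28378217, minus strand) has 3 cysteine codons and 1 histidine codon in capitals.
Zfp36 first CCCH finger: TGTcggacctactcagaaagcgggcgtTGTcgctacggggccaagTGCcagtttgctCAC

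The KRAB-A boxes of Zfp59 (chr7:27844291-27844398, plus strand) and Zfp971 (chr2:178031261-178031368, plus strand) are set side by side because both genes were among the largest differences at 12 weeks. Of 36 codons, the 23 in capitals encode the same residue in both.
Zfp59 KRAB-A box: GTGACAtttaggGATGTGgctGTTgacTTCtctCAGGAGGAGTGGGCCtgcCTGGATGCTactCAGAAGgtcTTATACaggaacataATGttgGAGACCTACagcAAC
Zfp971 KRAB-A box: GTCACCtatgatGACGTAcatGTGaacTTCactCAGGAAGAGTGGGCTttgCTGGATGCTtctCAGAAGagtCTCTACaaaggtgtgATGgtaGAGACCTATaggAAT

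Of the 199 genes, 98 encode a KRAB-A box and 101 do not. The median gene had 10 C2H2 fingers, 109 had 10 or more, and Zfp142 had the most with 36. No C2H2 finger was matched in 8 genes, among them Zfp36, Zfp185, Zfp503 and Zfp703. The genes are crowded on chromosome 7, with 46 members or 5.45% of its measured genes, and on chromosome 17, with 27 members or 4.80%. Their transcripts were long, with a median of 3716 bases against 2893.5 over all measured genes. Their median GC content was 45.9%, made up of 41.2% for KRAB genes and 51.9% for the rest. Their levels were low, with a median log2 value of 7.45 against 8.62 over all genes. Most low values were the log2 of a whole read count times 1 factor per library.

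Per kilobase of transcript, the level ranged from 11.9 scaled reads for Zfp882 to 1017 for Zfp706, with a median of 47.1. After Zfp706, a repressor of Klf4 in mouse embryonic stem cells, came Zfp207, a microtubule and Bub3-binding spindle protein, at 482 scaled reads per kilobase. Zfp36 had 345, Zfp106, an RNA-binding protein needed by motor neurons, had 307, and Zfp91, a ubiquitin ligase, had 299. Counting reads to related fingers can be uncertain. Of the 199 genes, 102 shared no 50-base window with a transcript of another gene, while 28 shared at least 10% of their windows. The shared part was largest for Zfp708, at 100%. It was 52.4% for Zfp59, 42.4% for Zfp971 and 38.9% for Zfp706, and 0 for Zfp24 and Zfp664.

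All 8 proximal tubule markers that define kidney cortex were measured, and their summed level was between 171460 and 223500 scaled reads in every 12-week library. Estimated depth ran from 7173910 reads in 12-week NASH replicate 2 to 14051500 in 24-week control replicate 2, which gave 24447 to 62156 reads on Zfp genes. At 12 weeks the NASH libraries had 12447900, 7173910 and 8230520 reads, against 12673500, 13738000 and 13055900 in the controls, and the part of depth in the results below was not tested. Replicate 1 stood apart in all 4 groups. Its 4 libraries had log2 values of Xist, the RNA of the inactive X chromosome, from 10.6 to 11.5, against 2.97 to 4.86 in the other 8 libraries, and no label names the sex of the animals in a library. Of the 199 Zfp genes, 161 had higher means in replicate 1 than in replicates 2 and 3, and 81 were higher and 12 lower at a limma adjusted p under 0.05, against 37.3% and 9.98% of all genes. Results at 12 weeks are therefore also given without replicate 1, and with the replicate number fitted as a block, because same-numbered libraries deviated together. Replicates 2 and 3 also did so across numbers, so these deviations set replicate 1 apart but do not show that replicates 2 and 3 pair by number.

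At 12 weeks most Zfp genes had lower mean levels in NASH than in control cortex. The mean was lower for 158 of 199 genes, against 59.6% of all genes, and the median change was -0.25 on the log2 scale, against -0.08 over all genes. The middle part of the set, between its quartiles, ran from -0.47 to -0.04. Without the replicate block no Zfp gene passed limma's moderated test at a Benjamini-Hochberg adjusted p under 0.05, and the smallest adjusted p was 0.228, while 6 of 11614 genes passed (0.0517%). At an unadjusted p under 0.05 there were 29 lower and 4 higher Zfp genes, against 9.1% and 5.4% of all genes. The 3 NASH libraries all lay below the 3 controls in 46 Zfp genes and all above them in 4, where 14.4% and 8.14% of all genes did so.

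Summed over the set, Zfp genes took 0.404%, 0.341% and 0.372% of the scaled reads in the 12-week NASH libraries, replicates 1 to 3, against 0.490%, 0.432% and 0.431% in the 12-week controls. Every NASH library lay below every control. At 24 weeks the shares were 0.429%, 0.375% and 0.361% in NASH against 0.457%, 0.349% and 0.383% in controls, and these overlapped. In bulk tissue, fewer cells of a type and less RNA per cell cannot be told apart.

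**Figure D1:**
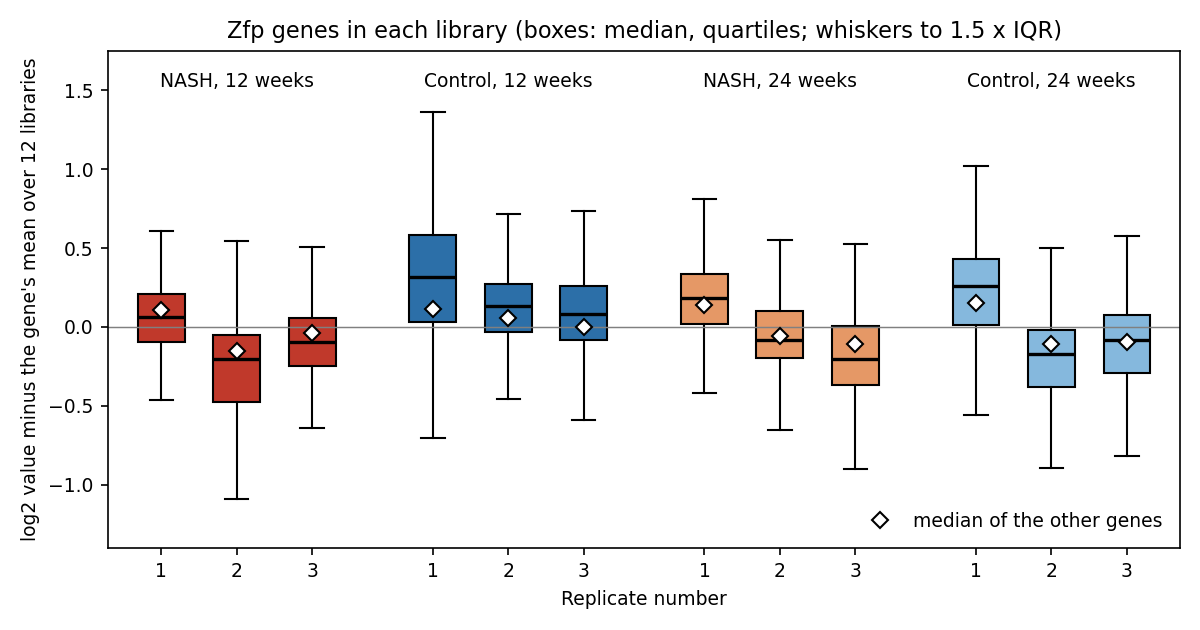
Boxes show, for each of 12 libraries, the log2 value of every Zfp gene minus its own mean over the libraries (median, quartiles, whiskers to 1.5 times the interquartile range), and white diamonds the median of the other genes. In the 12-week NASH libraries the Zfp medians of 0.07, -0.20 and -0.09 stand below those of the other genes, and in the 12-week controls the medians of 0.31, 0.13 and 0.08 stand above them.

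Within same-numbered pairs at 12 weeks, the median Zfp difference was -0.27 for replicate 1, -0.39 for replicate 2 and -0.18 for replicate 3. For the other genes the same medians were -0.0016, -0.20 and -0.04. All 3 pairs were thus lower for the set, and 93 of 199 genes were lower in each of the 3 pairs, against 33% of all genes. Using replicates 2 and 3 alone, the median was -0.29 and 165 of 199 genes were lower. The like value over all genes was not computed, and the other genes also had lower medians in these pairs (-0.20 and -0.04).

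**Figure D2:**
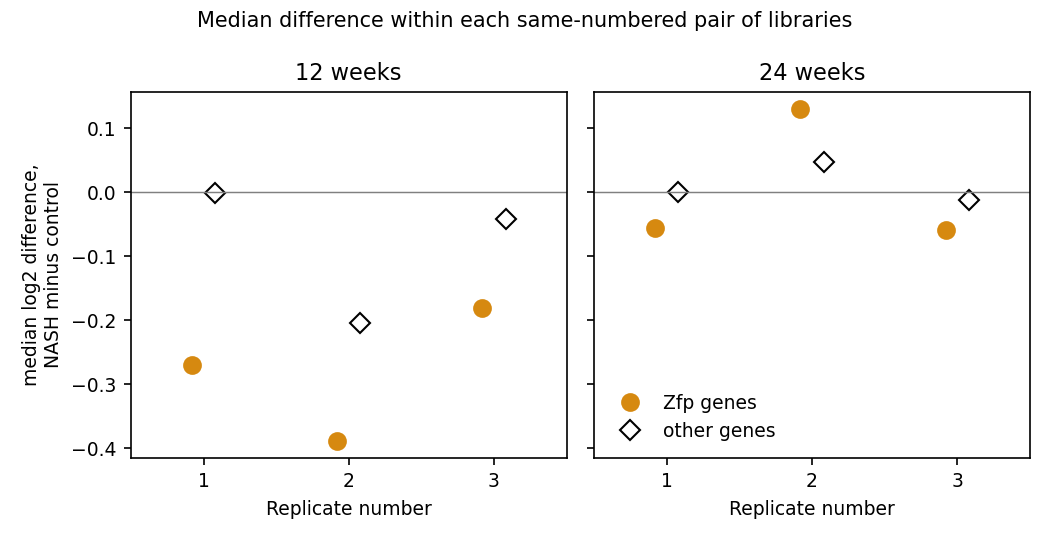
Median log2 difference, NASH minus control, within each same-numbered pair of libraries at 12 weeks (left) and 24 weeks (right), for Zfp genes and for the other genes. The 3 pairs at 12 weeks lie at -0.27, -0.39 and -0.18 for Zfp genes, and those at 24 weeks at -0.06, 0.13 and -0.06, on both sides of 0.

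With the replicate number as a block, 29 Zfp genes fell and 1 rose in NASH at 12 weeks, against 9.85% lower and 3.01% higher of all genes. The 29 changes ran from -1.22 to -0.35. NASH lay wholly below control in 20 of them, against 14.4% of all genes, and a call for a fall favours such a gap. All 29 were lower in 3 of 3 pairs, which a call with the block favours by itself. All 29 also had lower means in 24-week than in 12-week controls. Both comparisons use the 12-week controls, so a fall called at 12 weeks favours this by itself. The 62.8% of all genes that were lower were not picked in this way and are no like measure. The median Zfp log2 value was 7.76, 7.58 and 7.59 in the 12-week controls. It was 7.57, 7.27 and 7.35 in 12-week NASH and 7.68, 7.25 and 7.36 in the 24-week controls. Their median transcript length was 5486 bases, and 23 were longer than the median Zfp gene. Leaving out 1 library moved the 30 calls to 2 (without 12-week control replicate 3 or without 12-week NASH replicate 1), 6 (without control replicate 2), 10 (without NASH replicate 2) or 11 (without control replicate 1). With any other library left out, 22 to 32 were called.

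Zfp397, a zinc finger protein with a SCAN domain on chromosome 18, had the smallest adjusted p with the block. Its log2 values were 8.61, 8.20 and 8.42 in the 12-week NASH libraries, against 9.37, 9.08 and 9.04 in the controls. All NASH values lay below all controls, a fall of 1.69-fold (log2 change -0.76, SE 0.13, limma adjusted p 0.00952 with the block and 0.260 without it). Its call was lost only when 12-week control replicate 3 was left out.

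Its neighbour on chromosome 18, Zfp24, is a SCAN domain factor needed for myelination in mice and the seventh highest of the set per kilobase. It had log2 values of 9.20, 9.05 and 9.43 in the 12-week NASH libraries, against 9.97, 9.86 and 9.97 in the controls. The groups stood well apart (log2 change -0.71, SE 0.14, 1.63-fold lower, limma adjusted p 0.0140 with the block and 0.228 without). The call was lost without control replicate 2, control replicate 3 or NASH replicate 1.

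Zfp664 (gene 269704, chr5:124862705-124888630, mm10), whose fingers are printed above, had 9.78, 8.95 and 9.32 in the 12-week NASH libraries, against 10.64, 9.73 and 9.84 in the controls. Replicate 1 was the highest in both groups, so the groups overlapped although each pair was lower in NASH. The log2 change was -0.72 (SE 0.14 and limma adjusted p 0.0140 with the block, SE 0.41 and adjusted p 0.433 without it). The call was lost without the same 3 libraries as that of Zfp24.

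Among the KRAB genes, Zfp971 (gene 626848, chr2:178023284-178032510) had the largest change of those that passed. Its log2 values were 6.11, 5.43 and 5.94 in the 12-week NASH libraries, against 7.38, 6.94 and 6.81 in the controls. NASH lay below control throughout, 2.33-fold lower (log2 change -1.22, SE 0.32, limma adjusted p 0.0365 with the block and 0.287 without). The call of Zfp971 held in 5 of 12 fits with a library left out. The length given for it in the deposited files, 1146 bases, is shorter than the coding sequence of the 470 residues that GENCODE lists, which bears on any adjustment for length.

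Zfp59 (gene 22717, chr7:27838584-27856774), with 16 fingers, had 5.99, 4.88 and 5.57 in the 12-week NASH libraries, against 6.85, 6.69 and 6.35 in the controls. These groups did not overlap either (log2 change -1.15, SE 0.28, 2.22-fold lower, limma adjusted p 0.0285 with the block and 0.280 without). In NASH replicate 2, the shallowest library (scaling factor 1.96), this 4.88 and the 5.43 of Zfp971 rest on few reads. Zfp560, another KRAB gene, had 5.62, 5.78 and 5.52 in NASH against 6.66, 6.77 and 6.51 in controls at 12 weeks. All 3 NASH values lay below all controls (log2 change -1.01, SE 0.24, limma adjusted p 0.0255 with the block and 0.260 without). The calls of Zfp59 and Zfp560 each held in 7 of 12 fits with a library left out.

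Genes without a KRAB box made up 20 of the 29 falls. Zfp106 had 11.23, 11.01 and 11.19 in the 12-week NASH libraries, against 12.01, 11.58 and 11.69 in the controls, with no overlap (log2 change -0.61, SE 0.12, limma adjusted p 0.0134 with the block and 0.259 without). Zfp507 had 7.93, 7.57 and 7.64 in NASH, against 8.92, 8.53 and 8.32 in controls, again apart (log2 change -0.88, SE 0.16, limma adjusted p 0.0111 with the block and 0.260 without). Zfp644, Zfp646 and Zfp148, a factor that binds GC-rich promoters, fell with the block by 0.63, 0.62 and 0.57 on the log2 scale. Zfp790 and Zfp442 fell by 0.76 and 0.78.

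In the other direction, Zfp579 was the only Zfp gene that rose with the block at 12 weeks, and it is named because of its values. It had 6.65, 6.97 and 6.38 in NASH, against 5.53, 6.56 and 5.44 in controls, so the highest control lay among the NASH values (log2 change 0.82, SE 0.24, limma adjusted p 0.0468 with the block and 0.287 without). The call held in 1 of 12 fits with a library left out. Zfp703, a corepressor related to Zfp503, had 7.44, 7.22 and 7.18 in NASH against 6.06, 6.92 and 6.74 in controls. Its groups did not overlap, but its change of 0.71 (SE 0.24) did not pass, with a limma adjusted p of 0.0738 with the block. Zfp772, Zfp414 and Zfp811 were apart as well, with changes of 0.57, 0.27 and 0.26 that did not pass.

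**Figure D3:**
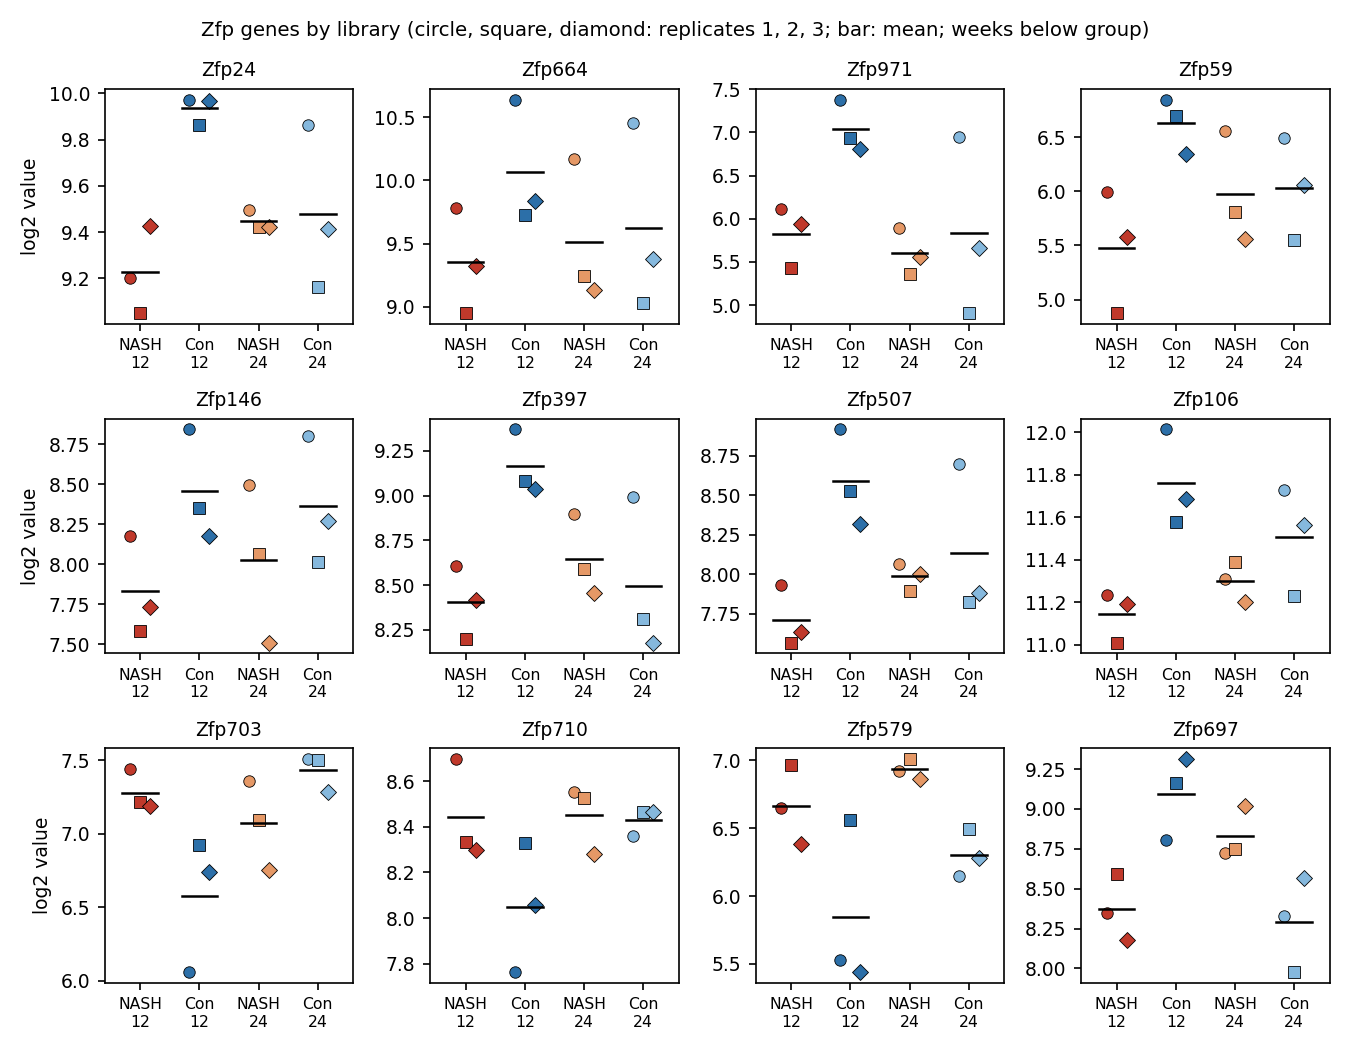
Log2 values of 12 Zfp genes in each library (circle, square and diamond for replicates 1, 2 and 3, bar for the group mean), with NASH left of control at each time. Zfp24, Zfp397 and Zfp106 lie lower in all 3 NASH libraries at 12 weeks and overlap at 24 weeks, and Zfp697 lies lower in NASH at 12 weeks and higher at 24 weeks.

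The Zfp genes are longer and lower in level than most genes, and the change at 12 weeks ran with transcript length in all genes. All genes were put into 4 classes of like size by length. In the shortest class, up to 1837 bases, the median change was 0.08 for 10 Zfp genes and 0.16 for the other genes. In the next class it was -0.08 for 48 Zfp genes and -0.04 for the others. In the third class, up to 4407 bases, it was -0.25 for 76 Zfp genes and -0.14 for the others. In the longest class it was -0.35 for 65 Zfp genes and -0.29 for the others, with 95.4% and 83.1% lower. Zfp genes thus lay below the other genes in each length class, and both went down from the shortest class to the longest. Across genes, Spearman's rho of change with length was -0.40 for the 199 Zfp genes and -0.48 for the 11415 others, a description of genes that share the same 12 libraries.

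By level, the median change was -0.22 for 104 Zfp genes and -0.07 for other genes in the lowest of 4 like classes of all genes. It was -0.26 for 62 Zfp genes and -0.10 for others in the second class, and -0.38 for 28 against -0.11 in the third. The highest class held 5 Zfp genes, with -0.35 against -0.03 for the others. Set against the median of other genes in the same class of length and the same class of level together, the median Zfp gene was lower by 0.09 on the log2 scale, and 128 of 199 were lower than that median.

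**Figure D4:**
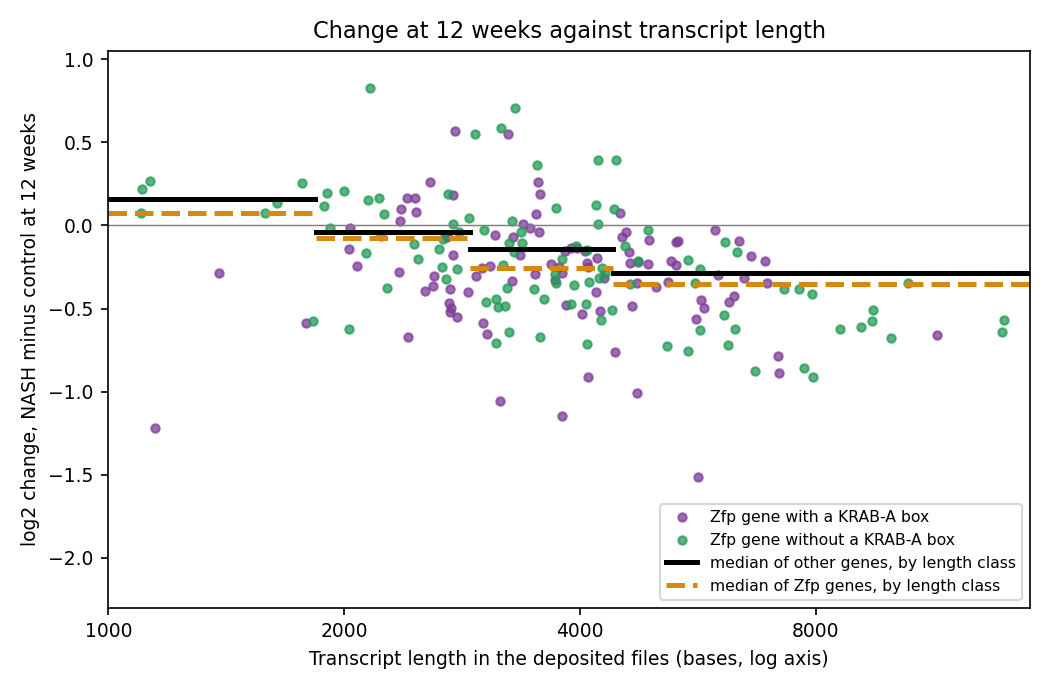
Log2 change, NASH minus control at 12 weeks, of each Zfp gene against its transcript length in bases (log axis), with KRAB genes and other Zfp genes in separate colours. Lines give medians by length class, which go down to -0.35 for Zfp genes (dashed) and -0.29 for other genes (solid) in the longest class.

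A smooth trend of level and length, fitted in each library on the genes outside the set, was then taken away from every value. The median Zfp change at 12 weeks became -0.07, against -0.01 over all genes, and 121 of 199 genes were lower, against 51.1%. NASH lay wholly below control in 33 Zfp genes and wholly above in 4, against 10.7% and 8.05% of all genes. With the trend removed and the block fitted, 6 Zfp genes fell and 2 rose, against 2.39% and 1.33% of all genes. The 6 were Zfp24, Zfp664, Zfp971, Zfp397, Zfp59 and Zfp146, all among the 29 above. The call of 8 genes became 0 when any 12-week control library, or NASH replicate 1 or 2 at 12 weeks, was left out.

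After the trend was removed, with the block, Zfp971 had a log2 change of -1.42 (limma adjusted p 0.0276) and Zfp59 one of -1.03 (adjusted p 0.0478). Zfp24 had -0.60 (adjusted p 0.0261), Zfp664 -0.52 (0.0353) and Zfp397 -0.48 (0.0357). Zfp146, made almost wholly of fingers, had -0.61 (0.0494). Its log2 values as deposited were 8.18, 7.58 and 7.73 in the 12-week NASH libraries, against 8.85, 8.35 and 8.17 in the controls. Only its replicate 1 in NASH reached the lowest control. The 2 that rose were Zfp703, with 0.85 (adjusted p 0.0471), and Zfp710, with 0.63 (0.0490). Zfp106 (-0.33, 0.0729), Zfp507 (-0.56, 0.0622) and Zfp560 (-0.82, 0.0706) no longer passed.

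GC content moved with the 12-week difference as well. Spearman's rho of change with GC was 0.31 for Zfp genes and 0.33 for the others, and the slope of values on GC per 10% was 0.10, 0.07 and -0.06 in the 12-week NASH libraries, against -0.31, -0.03 and -0.11 in the controls. The slope per doubling of length was -0.01, -0.14 and -0.08 in the 12-week NASH libraries and 0.22, 0.01 and 0.06 in the controls. When GC was added to the trend, a step chosen after the data were seen, the median was -0.06 and 121 of 199 were lower, against 51% of all genes. With the block, 3 then fell and 0 rose, against 2.03% and 0.964% of all genes. They were Zfp24 (-0.53, limma adjusted p 0.0363), Zfp664 (-0.47, 0.0448) and Zfp971 (-1.31, 0.0390). The part of library make-up in these length and GC slopes was not tested.

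KRAB genes and the other Zfp genes had the same median change at 12 weeks, -0.25 in both. The mean was lower in 84 of 98 KRAB genes and in 74 of 101 others, and with the block 9 KRAB genes fell and 0 rose, while 20 others fell and 1 rose, where 9.85% of all genes fell and 3.01% rose. With level and length removed, the medians were -0.07 and -0.06, with 60 and 61 genes lower. With GC removed too they were -0.02, with 52 of 98 lower, and -0.08, with 69 of 101 lower. The difference between these classes was not tested. Genes with 10 or more fingers had a median of -0.29, and those with fewer had -0.22.

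The KRAB and other clusters of neighbouring genes showed the spread within the set. Clusters were taken as runs of at least 3 measured Zfp genes, each within 200000 bases of the next, and 16 such clusters held 70 genes. The 8 genes at chr7:29768552-30169727, among them Zfp790, Zfp568, Zfp260 and Zfp146, were all lower in NASH at 12 weeks, with a median of -0.39 and of -0.22 after the level and length trend was removed. The 8 KRAB genes at chr17:21423227-21994366 had a median of -0.35, with 7 lower and 0 called, and -0.25 after removal. Of the 5 genes without KRAB at chr7:4915217-5038446 (Zfp628, Zfp579, Zfp524, Zfp865 and Zfp784), 1 was lower, with a median of 0.22 at 12 weeks, and 0 were lower at 24 weeks, with a median of 0.34. Genes in clusters had a median of -0.27 at 12 weeks, against -0.24 outside them.

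Some Zfp genes with known roles act against foreign DNA. Zfp638, which silences unintegrated retroviral DNA, fell with the block by 0.51 on the log2 scale (SE 0.13, limma adjusted p 0.0337), to 9.17, 8.66 and 8.98 in NASH against 9.84, 9.36 and 9.15 in controls. Only NASH replicate 1 reached the lowest control. Zfp809, a KRAB protein that binds the primer binding site of murine leukaemia virus, had 5.94, 6.10 and 6.16 in NASH against 7.16, 6.25 and 6.56 in controls. These did not overlap, but its change of -0.59 did not pass (SE 0.29, limma adjusted p 0.200 with the block). Zfp568, which represses a placental Igf2 promoter, had a change of -0.89 (SE 0.27, adjusted p 0.0517 with the block), also with no overlap.

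Zfp609 and Zfp516, a brown fat factor that acts on Ucp1, fell with the block by 0.62 and 0.86 (limma adjusted p 0.0188 and 0.0251). Neither passed with level and length removed, where their changes were -0.29 and -0.55. Zfp750, of epidermal differentiation, had -0.64 (adjusted p 0.0711 with the block) and overlaps Tbcd on the other strand. Zfp36 had 9.09, 9.13 and 8.65 in NASH and 8.996, 8.60 and 8.52 in controls at 12 weeks, and the groups overlapped. Its log2 change was 0.25 (SE 0.39, limma adjusted p 0.791). Zfp143, an activator that binds promoters, Zfp598, a sensor of collided ribosomes, Zfp622, of large ribosomal subunit assembly, and Zfp830, of splicing, had changes from -0.04 to 0.03 and did not pass, and the first 3 turned above 0 with median-of-ratios scaling. Neither did Zfp110, Zfp326, Zfp335, Zfp384, Zfp395, Zfp410, Zfp467, Zfp503, Zfp639 and Zfp687, whose changes ran from -0.35 for Zfp687, which overlaps Pi4kb on the other strand, to 0.58 for Zfp467.

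Of the 5 most abundant members per kilobase, Zfp106 and Zfp91 fell with the block and Zfp706, Zfp207 and Zfp36 did not pass. Zfp706 had 11.90, 12.41 and 12.44 in NASH against 11.94, 12.24 and 12.28 in controls at 12 weeks, which overlap, with a change of 0.10 (SE 0.19, limma adjusted p 0.834). Zfp207 had 10.05, 9.88 and 10.03 in NASH against 10.41, 10.32 and 10.35 in controls. Its groups did not overlap, yet the change of -0.37 did not pass (adjusted p 0.353, and 0.0930 with the block). Zfp91, which overlaps a predicted gene on the same strand, fell by 0.35 with the block (adjusted p 0.0441) and had -0.10 after level and length were removed (0.491). The largest change of the set was that of its lowest gene, Zfp882, named here for its value, at -1.51 (SE 0.78, adjusted p 0.393). It had 6.37, 3.29 and 5.72 in NASH against 7.15, 6.25 and 6.52 in controls, so NASH replicate 2, the shallowest library, lay far below the rest.

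The partners of KRAB proteins were mostly lower in NASH at 12 weeks as well. Of 36 genes listed for the repression complex 34 were measured, 29 had lower means in NASH, and the median change was -0.29, against -0.08 over all genes. With the block 11 of the 34 fell and 0 rose, where 9.85% of all genes fell. None passed with level and length removed, where the median was -0.15 and 25 were lower, and 2 passed with GC removed too, where it was -0.10 and 28 were lower. Trim28 had 10.35, 10.00 and 10.02 in NASH against 10.50, 10.42 and 10.38 in controls, with no overlap (log2 change -0.31, limma adjusted p 0.0429 with the block and 0.314 without). Setdb1 had 8.64, 8.33 and 8.54 in NASH against 9.19, 9.05 and 8.91 in controls, also apart (log2 change -0.55, limma adjusted p 0.0192 with the block and 0.268 without). Chd4, a nucleosome remodeller of the same silencing complex, Morc2a, of the HUSH pathway, and Sumo3 fell by 0.34, 0.55 and 0.65 with the block. At 24 weeks the list had a median of -0.03, with 0 called.

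Of 30 genes for CCCH proteins and messenger RNA decay 27 were measured, 23 were lower in NASH at 12 weeks, and 4 of the 27 fell with the block, where 59.6% and 9.85% of all genes did so. They include Cnot1, the scaffold of the deadenylase complex that tristetraprolin recruits, and the deadenylase Cnot6, both with a log2 change of -0.59, and Rc3h1 with -0.55 (limma adjusted p 0.0111, 0.00859 and 0.0179 with the block). After level and length were removed the median was -0.02 and none passed. The relatives of Zfp36, Zfp36l1 and Zfp36l2, had changes of -0.19 and 0.08 and did not pass.

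Markers of other cells also differed at 12 weeks. All 5 hepatocyte markers were higher in NASH, with sums of 2700 to 6554 scaled reads in NASH and 920 to 1492 in control libraries, and Ttr and Apoa2 rose with the block. All 5 adipocyte markers were higher, by a median of 0.64, with overlapping sums of 7930 to 25387 in NASH and 6727 to 19999 in controls. All 4 erythroid markers were higher, with sums of 1106 to 4267 in NASH and 862 to 1108 in controls. All 5 endothelial markers were lower, with sums of 3067 to 5546 in NASH and 4283 to 6028 in controls. The proximal tubule sums were 171460 to 219950 in NASH and 203350 to 223500 in controls. Of 5 loop and distal tubule markers 3 were higher (median of the 5 at 0.34), and the 2 lower ones fell with the block. Of 4 collecting duct markers 3 were lower (median of the 4 at -0.29), and the 1 higher one rose with the block. With the block 9.85% of all genes fell and 3.01% rose. The loop and distal tubule sums overlapped, at 26876 to 68188 in NASH and 28737 to 56148 in controls. So did the collecting duct sums, at 4457 to 7484 and 3560 to 5350. Macrophage and podocyte markers each had 3 of 5 higher, with 0 called. Of 6 T, NK and B cell markers 1 was measured. All markers of the other lists were measured. The part of cell make-up in the Zfp result was not tested.

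At 24 weeks the Zfp genes were about evenly split between higher and lower means in NASH than in control cortex. The median change was 0.01, as over all genes, and 106 were higher and 93 lower, where 47.9% of all genes were lower. No Zfp gene passed limma's test without the block (0% of all genes) or with it (0.00861%), and the smallest adjusted p was 0.388 with the block. At an unadjusted p under 0.05 there were 4 higher and 3 lower, or 2.01% and 1.51% of the set, against 1.89% and 1.09% of all genes. Groups did not overlap in 9 genes that were higher and 4 that were lower in NASH, against 4.56% and 2.65% of all genes. Removing level and length left the median at 0.01. Markers of other cells differed here too. All 5 adipocyte markers were lower in NASH, by a median of -2.01 with 4 of 5 apart, all 5 macrophage markers were higher (median 0.68), and so were all 5 podocyte (0.33), all 4 erythroid (1.26) and all 5 hepatocyte markers (0.56). None of these passed, and their part was not tested.

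Zfp748 had the smallest adjusted p at 24 weeks. It had 7.47, 7.45 and 7.23 in NASH against 7.84, 7.90 and 8.22 in controls, with no overlap (log2 change -0.60, SE 0.16, limma adjusted p 0.388 with the block). Zfp697 had 8.73, 8.75 and 9.02 in NASH against 8.33, 7.98 and 8.57 in controls, all higher in NASH (log2 change 0.54, SE 0.19, adjusted p 0.434 with the block). Zfp488, a factor of oligodendrocyte differentiation, had 8.15, 7.80 and 7.74 in NASH against 7.67, 7.03 and 7.11 in controls, also apart (0.63, SE 0.23, adjusted p 0.440 with the block). Others that did not overlap and did not pass were Zfp579 (0.63), Zfp868 (0.50), Zfp628 (0.44), Zfp784 (0.34), Zfp219 (0.31), Zfp414 (0.27) and Zfp821 (0.24) on the higher side, and Zfp442 (-0.59), Zfp217 (-0.40) and Zfp617 (-0.32) on the lower.

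Zfp442 and Zfp217 lay below control without overlap at both times. Zfp442 had 6.57, 6.83 and 6.92 in NASH against 7.15, 7.67 and 7.84 in controls at 12 weeks, and 6.42, 6.60 and 6.64 against 6.97, 6.98 and 7.48 at 24 weeks. Of its 50-base windows 32.3% are shared with other transcripts. Zfp217, whose human relative is amplified in breast cancers, had 7.97, 8.03 and 8.10 in NASH against 8.38, 8.17 and 8.33 in controls at 12 weeks, and 7.81, 7.92 and 7.93 against 8.46, 8.08 and 8.30 at 24 weeks. Its change of -0.26 at 12 weeks did not pass (limma adjusted p 0.193 with the block) and was 0.03 with level and length removed. Zfp414 lay above control without overlap at both times, with 7.51, 7.35 and 7.20 in NASH against 6.91, 7.17 and 7.17 in controls at 12 weeks, and 7.60, 7.33 and 7.36 against 7.14, 7.25 and 7.10 at 24 weeks. With GC, level and length removed its 12-week change turned to -0.012. Of the 29 genes that fell with the block at 12 weeks, 10 had higher means in NASH at 24 weeks, and the 24-week changes of the 29 ran from -0.59 to 0.54.

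The difference between both effects, 24 minus 12 weeks, was tested directly. Its median over the Zfp genes was 0.23, against 0.09 over all genes. Of the 199, 155 were above 0 and 44 below, where 37.7% of all genes were below 0. None passed limma's test without the block (0% of all genes) or with it (0.00861%). At an unadjusted p under 0.05 there were 9 above 0 and 1 below, against 2.43% and 1.23% of all genes. With level and length removed the median was 0.06.

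In size, the largest difference of any Zfp gene was 1.57. Zfp697, at 1.26, had the smallest adjusted p (SE 0.27, limma adjusted p 0.131 with the block and 0.732 without). In the 12-week libraries it had 8.35, 8.59 and 8.18 in NASH against 8.80, 9.16 and 9.32 in controls, a fall that passed with the block (log2 change -0.72, adjusted p 0.0275), so NASH lay wholly below control at 12 weeks and wholly above it at 24. Zfp397 (0.91, adjusted p 0.134 with the block), Zfp944 (0.89, 0.174), Zfp26 (0.85, 0.217) and Zfp24 (0.68, 0.233) followed. In the other direction came Zfp703 (-1.07, 0.261), Zfp810 (-0.76, 0.350), Zfp526 (-0.65, 0.529), Zfp748 (-0.44, 0.432) and Zfp710 (-0.37, 0.524).

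In control mice, which give the 12-week libraries already used above, 24 weeks set against 12 weeks had a median Zfp change of -0.20, against -0.08 over all genes. The mean was lower at 24 weeks in 145 of 199, against 62.8% of all genes. No Zfp gene passed limma's test without the block (0% of all genes) or with it (0.172%), with 13 lower and 2 higher at an unadjusted p under 0.05, against 4.86% and 2.97% of all genes. The 24-week controls lay wholly below the 12-week controls in 23 Zfp genes and wholly above in 6, against 7.38% and 4.72% of all genes. With level and length removed the median was -0.09. Of the adipocyte markers 4 of 5 were higher at 24 weeks and apart (median of the 5 at 2.64), and all 5 endothelial and all 4 erythroid markers were lower (medians -0.56 and -0.52), none of which passed. Their part in the Zfp values was not tested.

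Zfp488 had the smallest adjusted p in this contrast, with 7.67, 7.03 and 7.11 in controls at 24 weeks against 8.28, 8.73 and 8.48 at 12 weeks. The times stood far apart, a log2 change of -1.23 (SE 0.23, limma adjusted p 0.0604 with the block and 0.323 without). Zfp397 (-0.67, adjusted p 0.0611 with the block), Zfp961 (-0.59, 0.0782), Zfp697 (-0.80, 0.0786) and Zfp35 (-0.63, 0.0854) came next. On the higher side were Zfp703 (0.86, 0.0991), Zfp710 (0.38, 0.232), Zfp503 (0.37, 0.290), Zfp36 (0.72, 0.295) and Zfp772 (0.47, 0.298). Leaving out 24-week control replicate 1 brought 10 Zfp genes past the threshold with the block.

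In NASH mice, 24 weeks set against 12 weeks had a median Zfp change of 0.07, against 0.02 over all genes. Of the 199, 129 were higher and 70 lower, where 46% of all genes were lower. No Zfp gene passed limma's test without the block (0% of all genes) or with it (0.0258%), and 1 in each direction had an unadjusted p under 0.05, against 2.63% higher and 2.14% lower of all genes. The times did not overlap in 5 genes higher and 5 lower at 24 weeks, against 4.06% and 4.37% of all genes. Zfp706 had the smallest p on the lower side (log2 change -0.27, limma adjusted p 0.307 with the block, SE 0.19 without the block). It had 11.83, 11.98 and 12.12 in NASH mice at 24 weeks against 11.90, 12.41 and 12.44 at 12 weeks, which overlap. Zfp810 (-0.59), Zfp639 (-0.31), Zfp748 (-0.33) and Zfp462 (-0.46) followed. On the higher side Zfp935 (0.57), Zfp697 (0.46), Zfp704 (0.48), Zfp128 (0.58) and Zfp516 (0.52) came first, none of them past the test.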

How the data were processed

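The authors deposited 1 table of log2 values per library for 11614 genes, normalized per the file headers; per the submitters' processing notes BWA, limma and mouse build mm10 were used, with versions and roles not given in the sources used here. Below 60 steps, 85.5% to 91.1% of values were whole multiples of 1 step per library (tolerance 0.01 steps). Most of these low values are thus read counts times 1 factor, and what the rest stand for was not tested. Every gene reaches log2 6.64 in some library, so genes had been filtered by a rule not stated.

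The values were fitted as deposited with limma 3.58.1 in R 4.3.3 (4 group means, 12 libraries, mean-variance trend, 2-sided, Benjamini-Hochberg over 11614 genes, called under 0.05) and tested on simulated data. The simulated libraries had independent noise and no replicate effect, so they could not check the block where libraries deviate together. The replicate block was adopted because all 18 same-numbered pairs of libraries had correlated deviations above 0.1 (0.19 to 0.74). Replicates 2 and 3 also correlated across numbers (0.19 to 0.64, median 0.365), against medians of 0.40 within number 2 and 0.43 within number 3. Deviations were taken from means of 3 libraries, so an outlying replicate 1 by itself makes replicates 2 and 3 correlate. The rule could therefore not decide whether those numbers pair, and no label explains the numbers. The level and length trend is a spline with 4 degrees of freedom on log2 length and mean level, fitted per library outside the set. Fingers and KRAB-A boxes were found in GENCODE vM21 coding sequences with HMMER 3.4 and Python 3.11.15 (pandas 2.3.3, numpy 2.4.6); plots used matplotlib 3.10.9.

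Members and lists were chosen with earlier results of these data known. Genes are named if called without the block, if among up to 10 per direction with the smallest p and groups apart (12 and 24 weeks), up to 5 per direction in other comparisons, the 5 highest per kilobase, or on a list of known roles (28 of 38 measured). Zfp59, Zfp664, Zfp971, Zfp146, Zfp579, Zfp710 and Zfp882 were named after their values were seen. Counting error of the whole set per library follows from 24447 to 62156 Zfp reads, and that of a single gene is larger for its level.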

Additional observations from a re-analysis of the deposited data

How the results depend on the processing

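The replicate block gave 30 Zfp calls at 12 weeks where the fit without it gave 0. It gave no Zfp call in any other comparison. It was chosen because same-numbered libraries correlated, which sets replicate 1 apart but does not show that replicates 2 and 3 pair by number. With the block, the 30 became 8 with level and length removed and 3 with GC removed too, and 2 to 32 with 1 library left out; the 8 became 0 to 7. The median at 12 weeks (-0.25) was -0.066 with level and length removed and -0.059 with GC too, with or without the block, and -0.33 to -0.18 with 1 library left out. With the replicate block and median-of-ratios scaling 25 were called and with quantile normalization 22; the medians were then -0.16 and -0.17, against 0.01 and 0.00 over all genes, and 140 and 142 were lower. At 24 weeks the median was -0.079 to 0.13 with 1 library left out, the highest without control replicate 1. In control mice over time it was -0.088 with level and length removed, -0.048 with GC too, and -0.31 to -0.11 with 1 library left out; calls with the block were 0 to 10, and 0 to 6 with level and length removed. The difference of the effects had 0 to 1 call. Zfp414, apart at 12 weeks, turned to -0.012 with GC removed, with and without the block. Of 82 gene results named, none of which passed without the block, 5 near 0 turned sign with median-of-ratios scaling (Zfp110, Zfp143, Zfp598, Zfp622 and Zfp639), 5 with quantile normalization and 6 with level and length removed. A pseudocount of 16 and a filter at 100 scaled reads, which kept 159 Zfp genes, turned no sign. The cause of these shifts was not tested. Groups of 3 and low levels limit what these libraries can show, and related fingers leave the counts of some KRAB genes uncertain.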

Other observations

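Replicate 1 differed from the other libraries in many genes of all kinds, Zfp genes among them. Of the 199, 81 were higher and 12 lower in replicate 1 at a limma adjusted p under 0.05, against 37.3% and 9.98% of all genes. The median difference of replicate 1 from replicates 2 and 3 was 0.28 on the log2 scale for the 199 genes, against 0.20 over all genes. Zfp516 was higher by 1.25, Zfp609 by 1.02 and Zfp664 by 0.93. The difference was below 0 in 38 of the 199, with Zfp865 at -1.21 and Zfp444 at -0.85. What the replicate number stands for was not tested.

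Zinc finger genes with other names were also mostly lower in NASH at 12 weeks. Of 27 Zbtb genes, which pair fingers with a BTB domain, 26 had lower means, with a median of -0.30, and 9 fell with the block, where 59.6% of all genes had lower means and 9.85% fell. Zbtb38, which binds methylated DNA, had 7.51, 6.72 and 6.52 in NASH against 8.86, 7.51 and 8.24 in controls (log2 change -1.28, limma adjusted p 0.0134 with the block and 0.260 without). The highest NASH value and the lowest control value met at 7.51. Of 14 Zscan and Zkscan genes 10 were lower, with a median of -0.32, and Zkscan1 fell with the block by 0.41. Of 23 other symbols that start with Zfp 20 were lower, with a median of -0.38, and 3 fell with the block. Of 11 Klf genes 5 were lower, with a median of 0.03, and Klf12 fell with the block by 1.14. After level and length were removed, no gene of these lists passed with the block.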
